A study of Mus musculus with 22 samples.

Results

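The maturation of absorptive progenitors (AbsPro) into enterocytes of the mouse colon was examined over all genes, by function, in 8 of the 22 libraries of sorted colon crypt cells that were sequenced. The members were taken by their labels and are 3 libraries of AbsPro and 5 of enterocytes, and the other 14 libraries, 3 of stem cells, 4 of SecPDG, 5 of tuft cells and 2 of EECs, entered the fit and the minimum mean but no comparison. All mice were untreated wild type males of strain C57BL/6N, 5 to 7 weeks old, and the colon was taken from caecum to rectum. Cells of both groups were live, Epcam+, Cd31- and Cd45-. AbsPro were in addition Cd44med/hi, Cd24low and Ckit-, and enterocytes were Cd44low/- and Cd24-. By the study's methods the biological replicates came from independent mice and sorts. An AbsPro library came from a single mouse and an enterocyte library from several mice pooled. Whether a mouse gave cells to both groups is not stated. The sort thus defines both groups by surface proteins, and no lineage tracing ties one to the other.

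Crypts of the colon renew their lining from stem cells at the base. Daughters that take the absorptive fate divide a few more times as progenitors, then stop dividing and move up to the surface, where as enterocytes (colonocytes) they take up salt and water, exchange chloride for bicarbonate, oxidize butyrate and form the barrier to the microbes of the lumen. Wnt signaling is strongest at the crypt base and drives division through targets such as Myc, while BMP signals are strongest near the surface and favor differentiation.

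A value below is a normalized count, that is, reads on the gene divided by the library's total on genes times its TMM factor and set to the mean library. Values are given for AbsPro 1 to 3 and enterocyte 1 to 5 in that order, and a log2 fold change is enterocytes against AbsPro with its standard error. A gene was called where its adjusted p (Benjamini-Hochberg, edgeR quasi-likelihood test) was under 0.01 and its mean over the 22 libraries was not below 50, and "rose" and "fell" are used of called genes.

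The enterocyte libraries carried a far larger share of reads from outside genes, taken over reads on genes, outside genes or ambiguous between genes. Such reads made up 45.5% to 49.4% of each AbsPro library and 66.8% to 83.1% of each enterocyte library, with no overlap (exact permutation test, two-sided, p = 0.0357, the smallest that 3 against 5 libraries can give, adjusted p = 0.0476 over 4 library measures). A measure of stray reads was taken from 1567 genes of 6 families that were taken as silent. These are the Olfr, Vmn1r, Vmn2r, Taar, Krtap and Defb genes, which include the beta-defensins (Defb), peptides of epithelial defense. That every member is silent in gut cells was not tested, and of 1398 members tested for a change 1 reached a mean of 50. The silent families held 12.6 to 162 CPM, which scales counts by the library's total on genes, in AbsPro and 3984, 3156, 4004, 803 and 1357 CPM in enterocytes 1 to 5. From their counts per kilobase of exon a background was estimated for every gene. In the enterocyte mean it was 20% or more for 163 of the 420 genes that rose and have an estimate, and in the AbsPro mean it was that high for 0 of the genes that fell. This share is given beside low enterocyte counts where it is large.

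**Figure D1:**
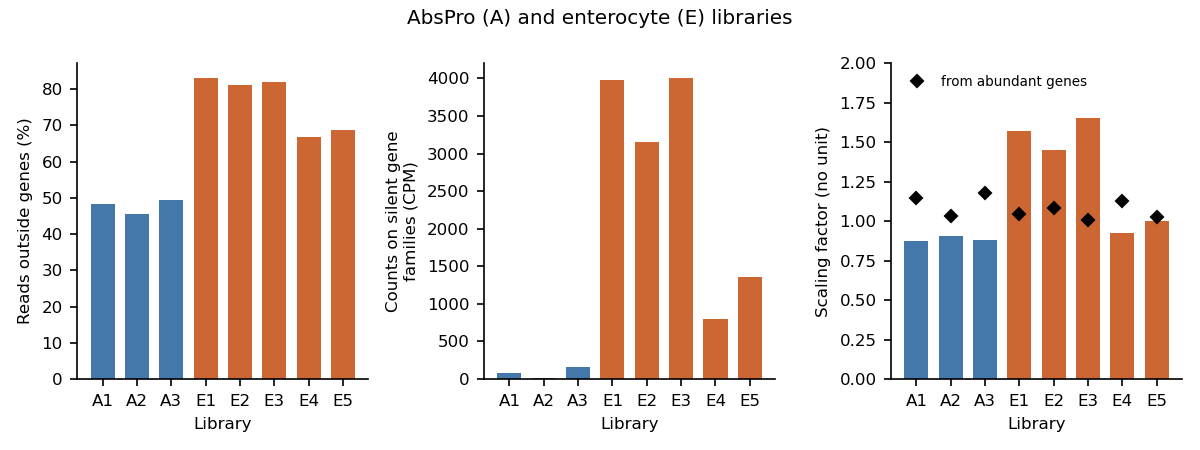
Reads outside genes in percent (left), counts on silent gene families in CPM (middle) and scaling factors without unit (right) for the 3 AbsPro (A, blue) and 5 enterocyte libraries (E, orange); bars on the right are TMM factors and diamonds are factors from abundant genes. Enterocytes 1 to 3 stand highest in all 3 sets of bars, with TMM factors of 1.45 to 1.65, and the diamonds of the 8 libraries lie between 1.00 and 1.18.

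The scaling of the libraries matters to every direction below. TMM factors were 0.874 to 0.905 in AbsPro, 1.57, 1.45 and 1.65 in enterocytes 1 to 3, and 0.925 and 1.00 in enterocytes 4 and 5, whereas factors from abundant genes alone ranged from 1.00 to 1.18 over the 8 libraries. Over the 13188 genes that reach this minimum mean, the median log2 fold change was -0.39 under TMM and 0.20 with factors from abundant genes, so that all changes move up together by about this shift, and a change is best read against the median. Over all 22781 genes tested, the silent families included, the TMM median was 0.98. The 5 enterocyte values of a highly expressed gene are set lower in enterocytes 1 to 3 than in 4 and 5 by the same factors. A call is said to hold under both scalings where the factors from abundant genes gave it too. A call said to be under TMM alone was not given by those factors, though other settings may have given it.

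Of the 22781 genes tested, 1159 (5.09%) differed, of which 434 (1.91%) were higher and 725 (3.18%) lower in enterocytes. Counts of called genes in each list below are to be read beside these shares. Most members of the function lists reach the minimum mean, while 13188 of the 22781 genes tested do, so the base is unlike. With factors from abundant genes 892 were higher and 390 lower, so that the share of higher genes went from 37.4% to 69.6%. It was 69.3% with DESeq2 size factors, 63.1% with library totals alone, 76.0% in a fit of the 8 libraries alone and 79.4% by the DESeq2 Wald test. No gene was called in opposite directions here and in any of the 23 alternatives tried, and 421 of the 434 higher and 351 of the 725 lower genes held under both scalings. For each of the 434 higher genes every enterocyte library lay above every AbsPro library, and for 721 of the 725 lower genes every one lay below. The calls came from these same values, so this separation adds no support to them, and uncalled genes such as Krt20 and Car1 were separate too. The counts rest on single libraries. The number of higher genes was 251 without AbsPro 1, 98 without AbsPro 2, 260 without enterocyte 2 and 222 without enterocyte 3. Lower genes numbered 1512, 168 and 1993 without AbsPro 1, 2 and 3, and 1844, 326, 284 and 1588 without enterocyte 1, 2, 3 and 4. With enterocytes 4 and 5 alone, the pair with least background, 32 were higher and 83 lower, all of them among the calls of the full set.

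**Figure D2:**
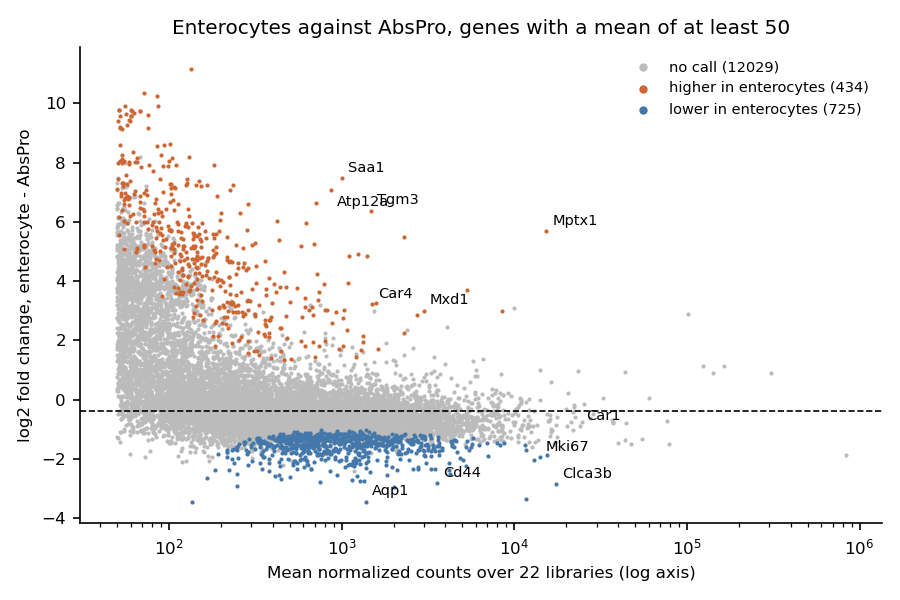
Log2 fold change of enterocytes against AbsPro for each of the 13188 genes with a mean of at least 50 normalized counts, against that mean on a log axis; orange and blue points are called genes and the dashed line is the median of -0.39. Most genes that rose have few counts, and most that fell are abundant.

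Genes that rose were mostly low in AbsPro. Of the 434 genes that rose, 245 had an AbsPro mean under 10, and 74 a mean of at least 50. Of the 725 that fell, 722 kept an enterocyte mean of at least 50. Genes that rose had a median log2 fold change of 4.96, or 4.92 with the 31 genes without a count in AbsPro set to their lower bound, and genes that fell had a median of -1.48. In these bulk libraries fewer cells that express a gene and less of its RNA per cell cannot be told apart.

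The gate was checked first. Cd44, the adhesion receptor by which both groups were sorted and itself a Wnt target, held 2421, 2994 and 1856 normalized counts in AbsPro and 292, 343, 255, 342 and 480.5 in enterocytes (-2.82 ± 0.30, adjusted p = 2.5e-07). No enterocyte library reached the lowest AbsPro library, and as the gate fixes this direction it is no finding. Cd24a, the other gate gene, was 4116, 2439 and 3819 against 591, 657, 513, 2453 and 1547 (-1.59 ± 0.44, adjusted p = 0.013), and enterocyte 4 lay within the range of AbsPro. Epcam, the epithelial adhesion molecule common to both gates, differed by -0.58 ± 0.41, adjusted p = 0.24. Kit, absent by the gate from AbsPro, stood at 832, 449.8 and 1147 in AbsPro and 357, 291, 345, 851 and 699 in enterocytes, so its RNA was present in AbsPro libraries sorted for the lack of the protein.

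Among 13 enterocyte markers 4 rose and 0 fell, with a median of 1.31. The markers that rose were Car4, Aqp8, Clca4a and Ceacam20, and the count was 2 without AbsPro 2, 6 with factors from abundant genes and 0 with enterocytes 4 and 5 alone. Car4 (chr11:84957786-84966044), the carbonic anhydrase anchored to the apical membrane, held 525, 560.4 and 598 normalized counts in AbsPro and 6269, 6591, 6103, 3773 and 3491 in enterocytes. All 5 enterocyte libraries were well above the 3 of AbsPro, which lay close together (3.22 ± 0.52, adjusted p = 0.00015). Aqp8 (chr7:123462291-123468004), the aquaporin of surface colonocytes, went from 84.1, 22.8 and 133 to 1245, 1395, 1151, 1309 and 883 (3.90 ± 0.91, adjusted p = 0.0045). The lowest enterocyte library was above the highest AbsPro library, and without AbsPro 2 Aqp8 was no longer called, at a log2 fold change of 3.46. Clca4a, a regulator of chloride conductance, rose by 1.72 ± 0.35, adjusted p = 0.0016, and Ceacam20, an adhesion molecule of the microvilli, by 3.28 ± 0.54, adjusted p = 0.00021.

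Other genes held to be typical of mature cells were already abundant in AbsPro. Car1, a cytosolic carbonic anhydrase of colonocytes, stood at 55434, 62075 and 84906 in AbsPro and at 37908, 35596, 25141, 35674 and 47977 in enterocytes. Every enterocyte library was below AbsPro, but the difference did not pass (-0.89 ± 0.56, adjusted p = 0.19), and it was -0.27 with factors from abundant genes. Slc26a3, the apical chloride and bicarbonate exchanger, held 2487, 2063 and 3489.8 and 3418, 4466, 3242, 4939 and 3059 with overlap (0.51 ± 0.48, adjusted p = 0.38). Krt20, the keratin of the differentiated upper crypt, was 3522, 2087 and 6392 against 8049, 8431, 11012, 9704 and 12342. Its enterocyte libraries all lay above AbsPro, and it was called with factors from abundant genes (1.99, adjusted p = 0.0063) but not under TMM (1.31 ± 0.51, adjusted p = 0.043).

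Genes of salt transport passed in both directions. Among 34 genes of ion transport 2 rose and 2 fell (5.88% each way, against 1.91% and 3.18% of all genes). All 34 reach the minimum mean that a call needs, while 13188 of the 22781 genes tested do, so these shares are not on the same base. All 434 genes that rose and 725 that fell are among those 13188. Lower genes numbered 7 without AbsPro 3, and higher genes 4 with factors from abundant genes and 8 by the DESeq2 Wald test. The list had a median of -0.17. Atp12a (chr14:56365068-56388550), the catalytic subunit of the colonic proton and potassium pump, was near 0 in AbsPro at 16.2, 40.7 and 21.6 and stood at 3273, 3641, 4377, 3827 and 2739 in enterocytes. This is the largest rise of the list, 7.09 ± 0.72, adjusted p = 2.5e-07, and the background made up 0.53% of the enterocyte mean. Ano1, a chloride channel opened by calcium, rose from 501, 325 and 514 to 829, 1436, 1110.2, 4119 and 2387 (2.15 ± 0.41, adjusted p = 0.00093). Slc12a2, the basolateral cotransporter that loads cells with chloride for secretion, was nearly identical in the AbsPro libraries at 13766, 13744 and 13758 and lower in all 5 enterocyte libraries at 1767, 1833, 2088, 7179 and 6009 (-1.87 ± 0.45, adjusted p = 0.0058). It was not called with factors from abundant genes (-1.43, adjusted p = 0.011) nor without AbsPro 2. Kcnq1, a potassium channel of the basolateral side, fell by 1.72 ± 0.30, adjusted p = 0.00034. Cftr, the apical chloride channel of secretion, was 8171, 6649 and 8420.1 against 2014, 2680.1, 1515, 4882 and 3967 and below AbsPro in each library, but did not pass (-1.36 ± 0.39, adjusted p = 0.015).

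Of sodium uptake, Scnn1a and Slc9a3 did not pass under TMM. Scnn1a, the alpha subunit of the epithelial sodium channel, was 1262, 985 and 1547 in AbsPro and 1802, 1619, 2254, 2391 and 2384 in enterocytes. The enterocyte libraries were all higher, and the call came with factors from abundant genes (1.37, adjusted p = 0.0046) and not under TMM (0.72 ± 0.39, adjusted p = 0.13). Slc9a3, the sodium and proton exchanger of the apical membrane, was 189, 102 and 229.8 and 541, 735, 529, 498 and 752, without overlap and without a call (1.82 ± 0.82, adjusted p = 0.074).

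Within the carbonic anhydrases and aquaporins 2 of 16 genes rose and 3 fell (12.5% and 18.75%, against 1.91% and 3.18% of all genes). Beside Car4 and Aqp8, which rose, Aqp1 fell furthest of all genes called with separate libraries (-3.45 ± 0.36, adjusted p = 2.5e-07). This water channel held 1141, 1673 and 791 normalized counts in AbsPro and 99.4, 79.2, 97, 149 and 125 in enterocytes. The highest enterocyte library was far below the lowest of AbsPro. Car12, a membrane-bound carbonic anhydrase, fell by 1.60 ± 0.40, adjusted p = 0.0069 under TMM alone, and Car8, a member without enzyme activity, fell by 1.53 ± 0.32, adjusted p = 0.0021 under both scalings. Car2, the main cytosolic form, differed by -0.95 ± 0.48, adjusted p = 0.11, and Aqp4 by 0.02 ± 0.40, adjusted p = 0.97.

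**Figure D3:**
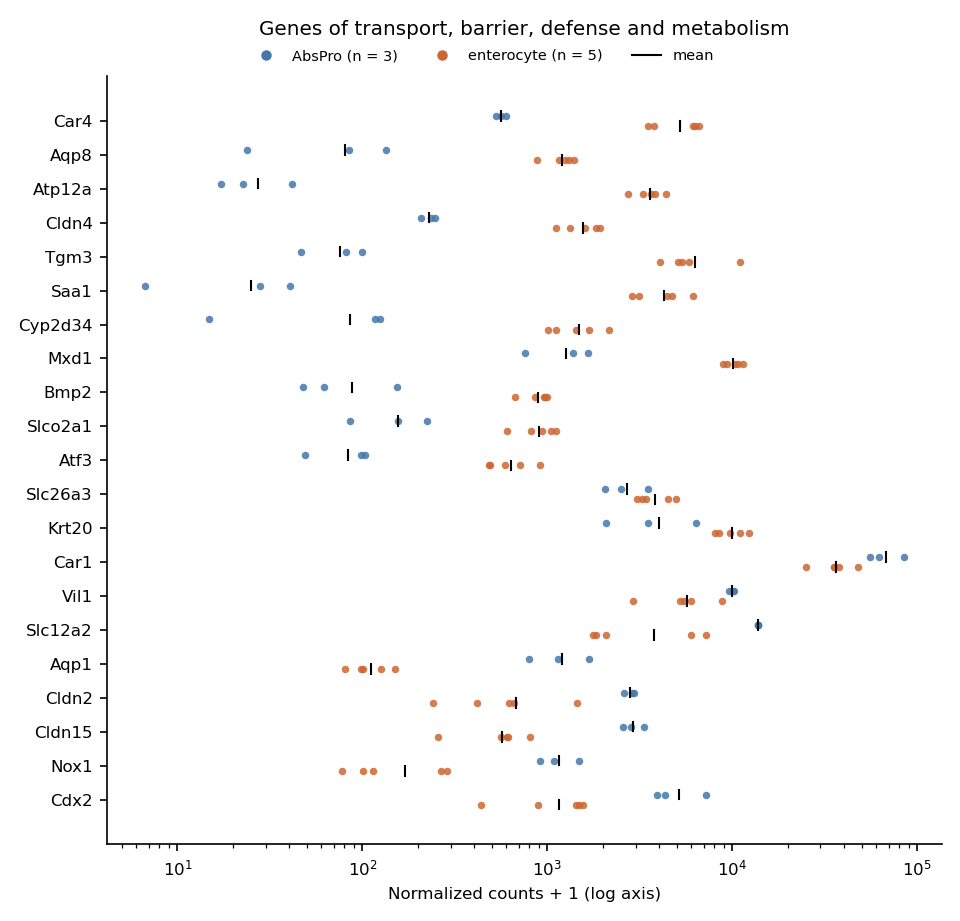
Normalized counts plus 1 on a log axis for 21 genes of transport, barrier, defense and metabolism; each blue point is an AbsPro library, each orange point an enterocyte library, and the black mark is the mean. The first 11 genes and Krt20 are higher in every enterocyte library, Slc26a3 overlaps, and the 8 genes from Car1 to Cdx2 lie below AbsPro in every enterocyte library.

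Single claudins of the tight junction moved in both directions. Of 24 genes 1 rose and 2 fell (4.17% and 8.33%, against 1.91% and 3.18% of all genes). All 3 held under both scalings. Cldn4, a sealing claudin, held 235, 206 and 248 in AbsPro and 1829, 1319, 1922, 1605 and 1112 in enterocytes, and rose by 2.76 ± 0.50, adjusted p = 0.00052. Cldn2, which forms pores for sodium and water, was 2875, 2935 and 2603 in AbsPro and 417, 618, 239, 1453 and 656 in enterocytes, and it fell by 2.05 ± 0.50, adjusted p = 0.0061. Its call was lost without AbsPro 2 or enterocyte 2, 3 or 5, and with enterocytes 4 and 5 alone. Cldn15, another pore-forming claudin, went from 2851, 3338 and 2559 to 605, 615, 256, 809.8 and 562 (-2.36 ± 0.32, adjusted p = 1.9e-05), and the groups were far apart in every library. Cldn23 was 220.4, 139 and 210.1 against 595, 606, 392, 539 and 255, above AbsPro throughout, and was called with factors from abundant genes (2.03, adjusted p = 0.0094) but not under TMM (1.33 ± 0.43, adjusted p = 0.022). Cldn8, a sealing claudin of the distal colon, overlapped between the groups (0.67 ± 0.60, adjusted p = 0.35).

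Structural genes of the brush border were abundant in both groups. Of 30 brush border genes 0 rose and 0 fell by edgeR, with a median of -0.08, while 2 were higher and 2 lower at an unadjusted p under 0.05 and 9 higher and 0 lower by the DESeq2 Wald test. With factors from abundant genes 4 were higher. Vil1, which bundles actin in microvilli, was 9571, 10257 and 10150.5 in AbsPro and 5227, 6008, 2917, 8843 and 5504 in enterocytes. Each enterocyte library was below AbsPro, but the difference did not pass (-0.81 ± 0.40, adjusted p = 0.1) and was -0.26 with factors from abundant genes. The protocadherins that link microvilli differed by 0.19 ± 0.40, adjusted p = 0.71 (Cdhr2) and 0.35 ± 0.37, adjusted p = 0.44 (Cdhr5), and the motor Myo1a by -0.55 ± 0.42, adjusted p = 0.29. By edgeR under TMM 0 of 8 keratins were called, and 1 was higher with factors from abundant genes. At an unadjusted p under 0.05, 3 were higher and 1 lower under TMM, and DESeq2 called 1 higher and 1 lower. Krt8, Krt18 and Krt19, which fill simple epithelia, differed by -0.47, -0.64 and -0.76. Guanylin signaling, which regulates fluid secretion, had 0 of 7 genes called by edgeR, 0 higher and 2 lower at an unadjusted p under 0.05, and 0 higher and 0 lower by DESeq2. The ligand Guca2a overlapped (-0.23 ± 0.41, adjusted p = 0.66), and the receptor Gucy2c was 9023, 6819 and 7702 and 3359, 3818, 2202, 6377 and 4357, lower in each enterocyte library without a call (-0.96 ± 0.38, adjusted p = 0.046).

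Defense genes moved in both directions. Of 37 genes of mucosal defense 5 rose and 2 fell (13.5% and 5.41%, against 1.91% and 3.18% of all genes). The list had a median of 0.60, and all 7 called genes held under both scalings. Those that rose were Saa1, Duox2, Muc1, Ceacam20 and Nlrp9b, and 2 genes of the list were called higher without AbsPro 2. Saa1 (chr7:46740497-46742980), an acute phase protein that binds retinol, held 26.8, 5.69 and 39.4 in AbsPro and 4438, 4749, 6169, 2855 and 3128 in enterocytes. The lowest enterocyte library exceeded the highest of AbsPro many times over (7.48 ± 0.78, adjusted p = 2.5e-07), with background at 0.27% of the mean. Duox2, an oxidase of the apical membrane that makes hydrogen peroxide, rose by 1.71 ± 0.43, adjusted p = 0.0073. Nox1, the NADPH oxidase of the lower crypt, moved the other way, from 1487, 915 and 1082 to 99.4, 114, 76.3, 285 and 266 (-2.79 ± 0.37, adjusted p = 1.7e-05), and its activator Noxa1 fell by 1.99 ± 0.31, adjusted p = 0.00011.

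Several defense genes were high in both groups. Pigr, which carries immunoglobulin A across the epithelium, was 113016, 91711 and 97779.7 and 44190.0, 52996, 28855, 86142 and 95526, with overlap (-0.71 ± 0.53, adjusted p = 0.27). Lypd8, which keeps flagellated bacteria away from the surface, was among the genes with the most counts per kilobase in enterocytes. It stood at 26603, 29335 and 37016 in AbsPro and 42100.2, 58942, 54962, 73257 and 70465 in enterocytes, higher in each, and was called with factors from abundant genes (1.56, adjusted p = 0.0039) but not under TMM (0.95 ± 0.51, adjusted p = 0.12). Nos2, the inducible nitric oxide synthase, was 37.4, 48 and 37.5 against 414, 228, 348, 90.1 and 279.7 without a call (2.73 ± 0.92, adjusted p = 0.025).

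Of 35 genes of interferon response and antigen presentation, Rsad2 alone rose, an antiviral enzyme that went from 70.6, 90.3 and 165 to 419.7, 515, 625, 350.2 and 497 (2.15 ± 0.53, adjusted p = 0.0066). Without AbsPro 1 none of the list was called. B2m, the light chain of class I antigen presentation, differed by -0.01 ± 0.35, adjusted p = 0.98. Ddx60, Slfn4 and Ifit1bl1, which interferon is known to induce and which were noted after their values were seen, rose by 1.44, 3.02 and 3.11 on the log2 scale. They were picked from genes that rose, all of which have separate libraries, so their separation adds no support.

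Among genes that rose with little background, the most abundant were listed after the values were seen. Neat1, a nuclear long noncoding RNA, held 4042, 1295 and 2937 in AbsPro and 19371, 21356, 14949.6, 27635 and 25301 in enterocytes (2.98 ± 0.49, adjusted p = 0.00017). Tgm3, a transglutaminase that crosslinks proteins, went from 98.9, 45.5 and 80.7 to 4058, 5844, 5376, 11007 and 5083 (6.38 ± 0.74, adjusted p = 2.3e-06). Both were separate in all libraries, Tgm3 by more than 10 times. Lama3, a laminin chain of the basement membrane, rose by 5.25 ± 0.73, adjusted p = 3.1e-05, Ggh, which trims folate chains, by 3.01 ± 0.46, adjusted p = 8.5e-05, and Fbxo32, a ubiquitin ligase of muscle atrophy, by 2.58 ± 0.43, adjusted p = 0.00022. Mptx1, a pentraxin of the colon, was 942, 333 and 198 in AbsPro and 4708, 2309, 11381, 10394 and 97086 in enterocytes (5.68 ± 1.03, adjusted p = 0.00052). The value of enterocyte 5 was several times the next, while the other 4 libraries also lay above AbsPro.

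Of 60 genes of xenobiotic metabolism 1 rose and 7 fell (1.67% and 11.7%, against 1.91% and 3.18% of all genes), with a median of -0.58. With factors from abundant genes 2 were higher and 3 lower, and by the DESeq2 Wald test 5 and 5. Cyp2d34, a cytochrome P450, was the exception at 124, 13.8 and 116 in AbsPro and 1426, 2144, 1110.2, 1685 and 1005 in enterocytes (4.12 ± 0.76, adjusted p = 0.00058). The 7 that fell were Gstm1, Gstm2 and Gstm3, which conjugate glutathione, the carboxylesterases Ces1d, Ces1f and Ces1g, and the quinone reductase Nqo1, and 3 of them (Gstm1, Gstm3 and Ces1d) held under both scalings, as many as were called without AbsPro 2. Ces1g was 3583, 3569.6 and 3976 against 1348, 1411, 401, 1258 and 865, with every enterocyte library lower (-1.81 ± 0.46, adjusted p = 0.0084). Members of the Gstm and Ces1 families have close copies, so that reads between them can be split. Cyp2c55, another P450, overlapped (0.13 ± 0.50, adjusted p = 0.84), as did the drug efflux pump Abcb1a (0.26 ± 0.43, adjusted p = 0.63).

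In prostaglandin handling 2 of 17 genes rose and 1 fell (11.8% and 5.88%, against 1.91% and 3.18% of all genes). Slco2a1, the transporter that takes prostaglandins into cells, held 155, 84.6 and 223 in AbsPro and 1046, 1114, 935, 818 and 601 in enterocytes. All enterocyte libraries were higher, 2.55 ± 0.43, adjusted p = 0.00025. Hpgd, which inactivates prostaglandin inside the cell, was 1983, 1289 and 2166 and 1281, 2127, 2707, 2791 and 3866 with overlap (0.49 ± 0.33, adjusted p = 0.21), and was called with factors from abundant genes (1.11, adjusted p = 0.0036). Ptgs1, the constitutive cyclooxygenase and a tuft cell gene, rose from under 6 in every AbsPro library to 130.2, 66.5, 126, 60.5 and 54 (4.69 ± 0.86, adjusted p = 0.00055), with background at 20.9% of the mean. Ptges2, a prostaglandin E synthase, fell by 1.28 ± 0.33, adjusted p = 0.0089 under TMM alone.

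Of 36 genes of fatty acid oxidation and ketogenesis 0 rose and 2 fell (5.56%, against 3.18% of all genes), with a median of -0.92. Eci1, an isomerase of mitochondrial fatty acid oxidation, fell by 1.63 ± 0.32, adjusted p = 0.0012 under both scalings. Acot1, a cytosolic thioesterase that is not on the list, went from 359.6, 600.2 and 295 to 45.3, 78, 54.3, 66.2 and 33.2 (-2.91 ± 0.43, adjusted p = 7.8e-05), with background at 33.2% of the latter mean. Cpt1a, which admits fatty acids to mitochondria, Ppara and Pparg were each lower in every enterocyte library and did not pass, at -1.04 ± 0.36, adjusted p = 0.027, -0.81 ± 0.30, adjusted p = 0.035 and -1.01 ± 0.35, adjusted p = 0.028. The count of the list was 0 without AbsPro 2 and 15 without AbsPro 3.

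Of 65 respiratory chain genes 0 rose and 1 fell (Cyc1, -1.37 ± 0.35, adjusted p = 0.0087), with a median of -0.55, and Cyc1 was not called with factors from abundant genes. The count that fell was 0 without AbsPro 2 and 14 without AbsPro 3. In glycolysis 1 of 26 rose and 1 fell, while 6 fell without enterocyte 4 and 4 rose with factors from abundant genes. Pfkfb3, which makes the activator of glycolysis fructose 2,6-bisphosphate, went from 36, 21.1 and 15 to 426, 271, 377, 131 and 306 (3.63 ± 0.51, adjusted p = 3.1e-05), above AbsPro in each library. Pfkl, the liver form of phosphofructokinase, fell by 1.55 ± 0.38, adjusted p = 0.0071 under TMM alone. Hexokinase Hk2 was 2307, 1692 and 2337 and 2716, 2571, 2306, 3335 and 3365 and was called with factors from abundant genes (1.06, adjusted p = 0.00088). Of 32 genes of lipid absorption and transport 1 fell and 0 rose, and of 23 of cholesterol synthesis 1 fell and 0 rose. The former was Slc27a2, a fatty acid transporter (-1.34 ± 0.34, adjusted p = 0.0083) called under TMM alone and with background at 13.5% of its enterocyte mean. The latter was Scap, the escort of the sterol regulator (-1.36 ± 0.32, adjusted p = 0.0047). Scap was not called without AbsPro 2 or enterocyte 2, 3 or 5, nor with enterocytes 4 and 5 alone. Fabp2 and Apob, of fat uptake and lipoprotein assembly, overlapped between the groups (-0.59 and -0.34), as did Mttp (0.79). Cd36 was higher in every enterocyte library without a call (4.49 ± 1.83, adjusted p = 0.0503), with background at 27.1% of its enterocyte mean. The lipid list had a median of 0.40. At an unadjusted p under 0.05, 9 of its genes were higher and 6 lower, and by the DESeq2 Wald test 6 and 2.

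Genes of cell division fell together. Of 45 mitosis genes 30 fell and 0 rose, with a median of -1.67, and of 46 genes of DNA replication 22 fell and 0 rose, with a median of -1.37. Over all genes tested, of which 13188 reach the minimum mean, 3.18% fell. With factors from abundant genes 15 and 13 fell, medians -1.10 and -0.80 against 0.20 for all genes that reach the minimum mean. Without AbsPro 2 replication genes that fell numbered 12, without enterocyte 3 mitosis genes numbered 21, and with enterocytes 4 and 5 alone 10 and 7 were called. Summed over the list, mitosis genes held 49812 to 75771 normalized counts in AbsPro and 11201 to 30357 in enterocytes.

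Mki67, the proliferation antigen, was the most abundant of them at 20117, 12002 and 22628 in AbsPro and 2312, 4300.0, 1568, 9412 and 6072 in enterocytes. The groups did not overlap, though enterocyte 4 came near AbsPro 2 (-1.95 ± 0.43, adjusted p = 0.0028). Top2a, the topoisomerase that untangles sister chromatids, held 2911, 3327 and 4616 against 436, 754, 533, 1246 and 1173 (-2.13 ± 0.36, adjusted p = 0.00025). Cdc20, the activator of the anaphase complex, fell furthest in the list, from 1093, 1001 and 822 to 156, 149, 101, 321 and 234 (-2.34 ± 0.35, adjusted p = 8.0e-05). Ccnb1, the mitotic cyclin, fell by 1.67 ± 0.41, adjusted p = 0.0064 under TMM alone, with background at 17.4% of its enterocyte mean.

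The replication genes that fell have several roles. The helicase subunits Mcm2 to Mcm7 fell by 2.04 to 2.36 on the log2 scale, all 6 of them, and Mcm2, Mcm4, Mcm6 and Mcm7 held under both scalings. Mcm5 was 1154, 1966 and 982 in AbsPro and 269, 269.6, 259.9, 381 and 277 in enterocytes (-2.23 ± 0.37, adjusted p = 0.00022), called under TMM alone of these 2 scalings, and AbsPro 2 was the highest library. Pcna, the sliding clamp, held 601, 597 and 721 and 167, 181, 141, 298 and 242 (-1.64 ± 0.35, adjusted p = 0.0022). Uhrf1, which brings the maintenance methyltransferase to new DNA, showed the largest fall, 1131, 2157 and 927 to 156, 221, 150.2, 289 and 262 (-2.70 ± 0.35, adjusted p = 9.0e-06), and that enzyme, Dnmt1, fell by 1.56 ± 0.29, adjusted p = 0.00067. Rrm2, of the enzyme that makes deoxynucleotides, was 459.9, 982 and 406 against 145, 109, 86.6, 156 and 209 (-2.13 ± 0.49, adjusted p = 0.0043), called under TMM and not with factors from abundant genes or by the Wald test. Histone genes of S phase were also among the largest falls. Hist1h1b held 1111, 3265 and 1324 in AbsPro and 114, 184, 89, 619 and 210.5 in enterocytes (-2.96 ± 0.46, adjusted p = 0.00011), and Hist1h2af fell by 2.76 ± 0.59, adjusted p = 0.0022. The histone messages of this class lack a poly(A) tail.

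The promoters of these genes, 250 bases before to 50 after the gene's start in RefSeq (GRCm38.p6), were searched on both strands for 5 short motifs. The CHR element, the cell cycle homology region of late cell cycle genes, was searched as TTTGAA or TTCGAA. It was present in 29 of 38 mitosis genes with a promoter (76.3%), in 7 of 38 replication genes (18.4%) and in 2856 of 16762 genes tested (17.0%). The site of E2F factors, which act at the entry to S phase, was searched as TTTCCCGC or TTTGGCGC. It was present in 12 of 38 replication genes (31.6%), 2 of 38 mitosis genes (5.26%) and 2.16% of genes tested. The letters CCAAT were present in 28 of 38 mitosis genes (73.7%), 24 of 38 replication genes (63.2%) and 38.5% of genes tested. No motif holds another. A match is a description of these letters and no evidence of binding. The following stretches of 30 bases are shown because each holds an E2F or CHR motif, in capitals, in a gene that fell. The stretches of Top2a (on the other strand) and Cdc20 also hold the letters CCAAT, left in lower case.
Mcm5, E2F site, chr8:75109349-75109378 (plus strand): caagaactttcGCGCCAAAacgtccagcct
Mki67, CHR element, chr7:135716478-135716507 (minus strand): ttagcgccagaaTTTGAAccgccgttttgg
Top2a, CHR element, chr11:99024351-99024380 (minus strand): ctattggtccatTTTGAAgattctcccgcc
Cdc20, CHR element, chr4:118437344-118437373 (minus strand): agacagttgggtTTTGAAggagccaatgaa
The motifs begin 149, 116, 179 and 18 bases before the gene's start. Of all 548 genes that fell and have a promoter, 32 (5.84%) hold the E2F letters and 101 (18.4%) the CHR letters. Of 308 that rose, 1 (0.325%) and 41 (13.3%) do. Called genes must reach the minimum mean, which 10025 of the genes tested with a promoter do. Of these 10025, 2.96% hold the E2F letters, 13.9% the CHR letters and 38.3% the letters CCAAT. Letters of an HNF4 site (CAAAGTCCA or CAAAGGTCA) were in 0 of the 308 and in 1 of the 548 (0.182%). They were in 0.895% of genes tested and 0.758% of the 10025. Letters of a CDX2 site (CCATAAA) were in 10 of the 308 (3.25%) and 9 of the 548 (1.64%). They were in 2.42% of genes tested and 1.67% of the 10025.

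**Figure D4:**
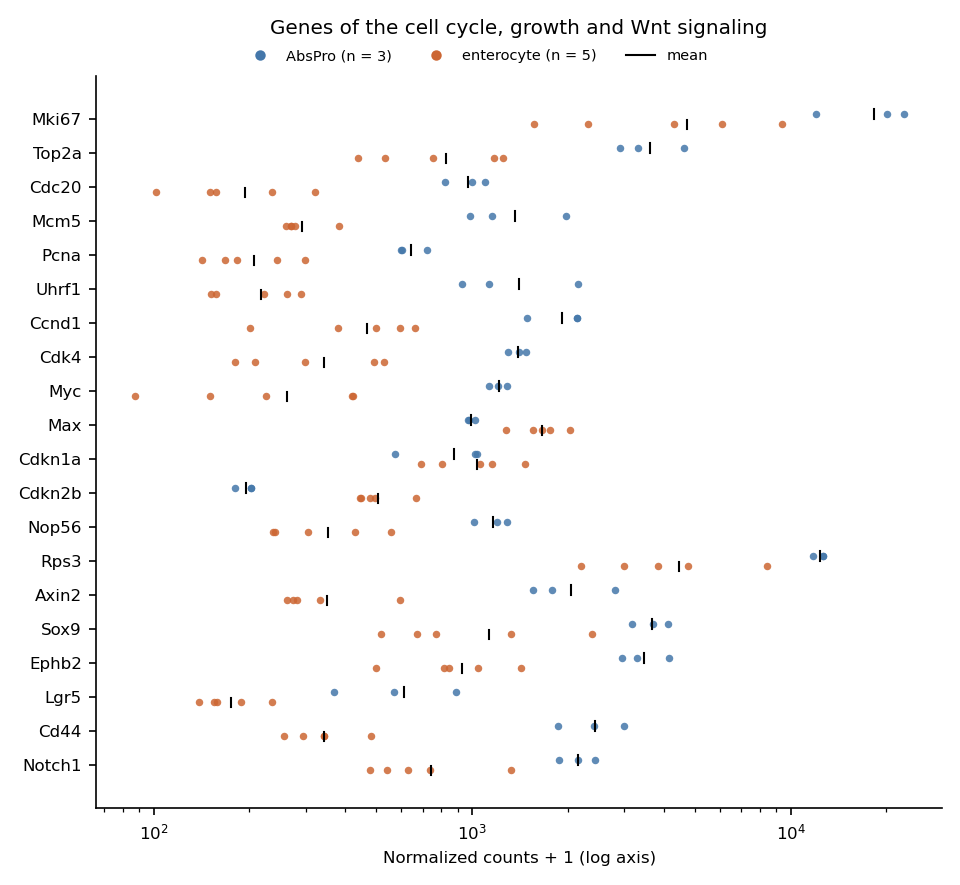
Normalized counts plus 1 on a log axis for 20 genes of the cell cycle, growth and Wnt signaling, with AbsPro libraries in blue, enterocyte libraries in orange and the mean as a black mark. Max, Cdkn1a and Cdkn2b have higher means in enterocytes, and the other 17 genes lie lower in every enterocyte library.

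At the G1 gate of the cycle 6 of 27 genes fell (22.2%, against 3.18% of all genes) and 0 rose. Of those that fell, 3 (Ccnd1, Cdk4 and Trp53) held under both scalings. Ccnd1, the cyclin of G1, was 2136, 2139.8 and 1487 in AbsPro and 379, 498, 199.9, 662 and 594 in enterocytes (-2.04 ± 0.31, adjusted p = 8.7e-05). Its partner Cdk4 held 1405, 1477 and 1299.9 and 208, 297, 179, 529 and 492 (-2.03 ± 0.32, adjusted p = 0.00011). The 2 genes are thus lower in all 5 enterocyte libraries by similar amounts. Of the inhibitors, Cdkn1a overlapped at 570.1, 1022 and 1038 and 1060.3, 1155, 691, 1466 and 804 (0.24 ± 0.47, adjusted p = 0.69). Cdkn2b, an inhibitor of Cdk4, was 179, 202 and 202 against 478, 494, 448, 666 and 444, higher in every enterocyte library but not called (1.38 ± 0.64, adjusted p = 0.078).

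The partners of Max moved in opposite directions. Of 12 genes of the Myc and Max network 1 rose and 3 fell (8.33% and 25%, against 1.91% and 3.18% of all genes). Myc, the growth regulator, held 1289, 1208 and 1133 normalized counts in AbsPro and 86.3, 225, 149, 423 and 419.5 in enterocytes (-2.21 ± 0.42, adjusted p = 0.00069). Mxd1, which competes with Myc for Max and represses the same genes, held 1369.8, 759.6 and 1662 and 8859, 10687, 11381, 10351 and 9413 (3.00 ± 0.40, adjusted p = 1.9e-05). Both were separate in all libraries and held under both scalings, and Mxd1 was called in each of the 23 alternatives. Max itself was 1017, 971 and 976 and 1279.6, 1549, 1653, 1755 and 2023, higher throughout in enterocytes, and was called with factors from abundant genes (1.37, adjusted p = 0.00015) and not under TMM (0.74 ± 0.29, adjusted p = 0.041). Mycl fell by 1.39 ± 0.29, adjusted p = 0.0019 and Mlxipl, which pairs with the relative Mlx, fell by 1.52 ± 0.32, adjusted p = 0.0021, both under TMM alone.

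Genes of ribosome production fell in part, and their number hangs on the scaling. Of 45 genes of ribosome biogenesis 15 fell (33.3%, against 3.18% of all genes) and 0 rose, with a median of -1.04. With factors from abundant genes 4 fell, and 4 without AbsPro 2. Nop56, of the small nucleolar particles that methylate ribosomal RNA, was 1286, 1012 and 1198 in AbsPro and 239.8, 304, 236, 557 and 429 in enterocytes (-1.72 ± 0.36, adjusted p = 0.002). Nhp2, of the particles that make pseudouridine, fell by 1.88 ± 0.36, adjusted p = 0.00093. Nolc1 and Mybbp1a were the other 2 to hold under both scalings. Ncl and Fbl overlapped between the groups (-1.08 and -0.76). Of 80 cytosolic ribosomal protein genes tested, of 81 listed, 7 fell (8.75%, against 3.18% of all genes) and 0 rose, with a median of -0.92. All 7 held under both scalings, none was called without AbsPro 2, and 13 fell with factors from abundant genes. Rps3 held 12612, 12652 and 11791 and 3002, 3847, 2197, 8461 and 4751 (-1.47 ± 0.39, adjusted p = 0.0098), and enterocyte 4 was the closest to AbsPro. Many ribosomal protein genes have processed pseudogenes, so that their counts are uncertain.

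Of 45 splicing factors 7 fell (15.6%, against 3.18% of all genes) and 0 rose, with a median of -0.95. All 7 fell under both scalings, and 0 were called without AbsPro 2. Ptbp1, a repressor of exons, held 5371, 5594 and 4526 in AbsPro and 1462, 1449, 662, 2944 and 1389 in enterocytes (-1.71 ± 0.36, adjusted p = 0.0021). Srsf1, an activator of exons, held 3631, 3251 and 3994 and 1037, 1238, 629.6, 2369 and 1398 (-1.44 ± 0.37, adjusted p = 0.0092). Srsf2, Srsf7, Hnrnpa0, Mbnl1 and U2af2 were the others. Of 25 genes of protein folding in the ER and the unfolded protein response 0 were called by edgeR, 1 were higher and 6 lower at an unadjusted p under 0.05, and DESeq2 called 1 higher and 0 lower. The chaperone Hspa5 differed by -0.81 ± 0.40, adjusted p = 0.095 and the factor Xbp1 by -0.64 ± 0.37, adjusted p = 0.15.

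Of 32 Wnt targets and stem cell genes 16 fell and 2 rose (50% and 6.25%, against 3.18% and 1.91% of all genes). The median was -1.30, and the gate gene Cd44 was among those that fell. Of the 16, 10 held under both scalings, 7 were called without AbsPro 2 and 6 with enterocytes 4 and 5 alone. Axin2, the feedback inhibitor of Wnt signaling, held 1785, 2801 and 1556 in AbsPro and 281, 260.4, 273, 594 and 332 in enterocytes (-2.56 ± 0.30, adjusted p = 3.2e-06). Sox9, a factor of the crypt base, was 3709, 4130.0 and 3177 and 673, 771, 515, 2378 and 1326 (-1.70 ± 0.38, adjusted p = 0.003). It was not called without AbsPro 2 or enterocyte 2 or 3, nor with enterocytes 4 and 5 alone. Ephb2, the receptor that sorts cells along the crypt, was 3291, 4149 and 2951 and 842, 816, 498, 1427 and 1044 (-1.90 ± 0.30, adjusted p = 0.00011). Enterocytes were lower in each library for all 3 genes. Lgr5, the stem cell receptor, was low in AbsPro at 368, 889.8 and 566 and 234, 157, 187, 138 and 154 in enterocytes (-1.81 ± 0.32, adjusted p = 0.00038), called under TMM alone and with background at 27.7% of the enterocyte mean. Olfm4 held 553, 203 and 747 and 57, 36.7, 30, 18.2 and 88.6 (-3.44 ± 0.87, adjusted p = 0.0076), not called with factors from abundant genes (adjusted p = 0.032) and with background at 30.1% of the enterocyte mean. The 2 that rose were Nkd1, a Wnt antagonist (3.14 ± 0.69, adjusted p = 0.0029) with background at 20.9% of its enterocyte mean, and Tnfrsf19, a receptor, from 13.4, 0.81 and 6.57 to 187, 104, 223, 52.5 and 87.2 (4.20 ± 1.07, adjusted p = 0.008), with background at 17% of the mean. Without AbsPro 1 neither was called, and Tnfrsf19 lost its call when any 1 of the 3 AbsPro libraries or of enterocytes 1 to 3 was left out.

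In Notch signaling, which holds progenitors to the absorptive fate, 4 of 28 genes fell and 1 rose. These are 14.3% and 3.57%, against 3.18% and 1.91% of all genes. Notch1 was 2148, 2435 and 1872 in AbsPro and 541, 629.9, 477, 1322 and 738 in enterocytes (-1.54 ± 0.32, adjusted p = 0.0017), and it alone of the 4 held under both scalings. The target Nrarp fell by 1.77 ± 0.38, adjusted p = 0.0025 and the glycosyltransferase Lfng fell by 1.54 ± 0.32, adjusted p = 0.0021, both under TMM alone, while the target Hes1 overlapped (-0.61 ± 0.38, adjusted p = 0.19). Notch4, the receptor known from endothelium, rose from 124, 22.8 and 91.9 to 428, 241, 327, 396 and 352 (2.13 ± 0.52, adjusted p = 0.0068). Without AbsPro 2, 1 gene of the list was called lower and 0 higher.

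Of 29 genes of BMP and hedgehog signaling 1 rose and 1 fell (3.45% each, against 1.91% and 3.18% of all genes). Bmp2, a ligand made near the surface, held 46.6, 61 and 153 in AbsPro and 964, 855, 972, 991 and 666 in enterocytes. The enterocyte libraries lay between 666 and 991 and far above AbsPro (3.36 ± 0.59, adjusted p = 0.00038). Smo, the transducer of hedgehog signals, held 868, 1125 and 695 and 156, 221, 229.9, 382 and 251 (-1.85 ± 0.28, adjusted p = 8.5e-05). Ihh, the hedgehog ligand of the colon epithelium, was lower in each enterocyte library without a call (-1.08 ± 0.34, adjusted p = 0.02), and the BMP target Id1 overlapped (-0.07 ± 0.37, adjusted p = 0.89). In EGF receptor signaling 1 of 22 genes fell, Lrig1, which restrains the receptor, from 4221, 3692 and 3433 to 819, 727, 594, 2198 and 1379 (-1.73 ± 0.34, adjusted p = 0.0011). The receptor Egfr differed by -0.04 ± 0.30, adjusted p = 0.92 and its ligand Areg by 1.22 ± 0.88, adjusted p = 0.26.

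Of 41 intestinal transcription factors 4 fell (9.76%, against 3.18% of all genes) and 0 rose, with a median of -0.59. Cdx2 and Sox9 held under both scalings. The count that fell was 0 without AbsPro 2 and 10 without enterocyte 1. Cdx2, which sets intestinal identity, held 4324, 7182 and 3898 in AbsPro and 1481, 1420.3, 436, 1565 and 892 in enterocytes. Every enterocyte library was below the AbsPro range (-2.15 ± 0.40, adjusted p = 0.00068), and without AbsPro 2 the call was lost at a log2 fold change of -1.83. Hnf4a, which drives enterocyte genes, was 13893, 14524 and 13808 and 6226, 7662, 3329.6, 11052 and 5685 and did not pass (-1.05 ± 0.38, adjusted p = 0.033), and its relative Hnf4g differed by -0.51 ± 0.33, adjusted p = 0.2. Klf4, a factor of postmitotic cells, overlapped (0.58 ± 0.40, adjusted p = 0.24) and was called with factors from abundant genes (1.16, adjusted p = 0.0037). Prdm1, which represses immature programs, was 9.89, 0 and 38.5 against 158, 220.3, 191, 201 and 154, higher in each enterocyte library without a call (3.52 ± 1.31, adjusted p = 0.036).

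Stress and death genes held single calls. Atf3, a factor of the stress response, went from 48, 96.8 and 102 to 708, 592, 913, 481 and 489 (2.95 ± 0.51, adjusted p = 0.00033) and was the 1 of 25 immediate early and stress genes to rise. Fos and Jun overlapped (0.62 ± 0.45, adjusted p = 0.26 and -0.06 ± 0.35, adjusted p = 0.9). Of 31 genes of cell death and survival Pmaip1, which promotes apoptosis, rose from 146, 91.9 and 188 to 696, 879, 2059, 704 and 979 (2.91 ± 0.57, adjusted p = 0.001), and was not called without AbsPro 2. Bcl2, which opposes it, fell by 1.25 ± 0.31, adjusted p = 0.0076 under TMM alone, with background at 33% of its enterocyte mean.

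**Figure D5:**
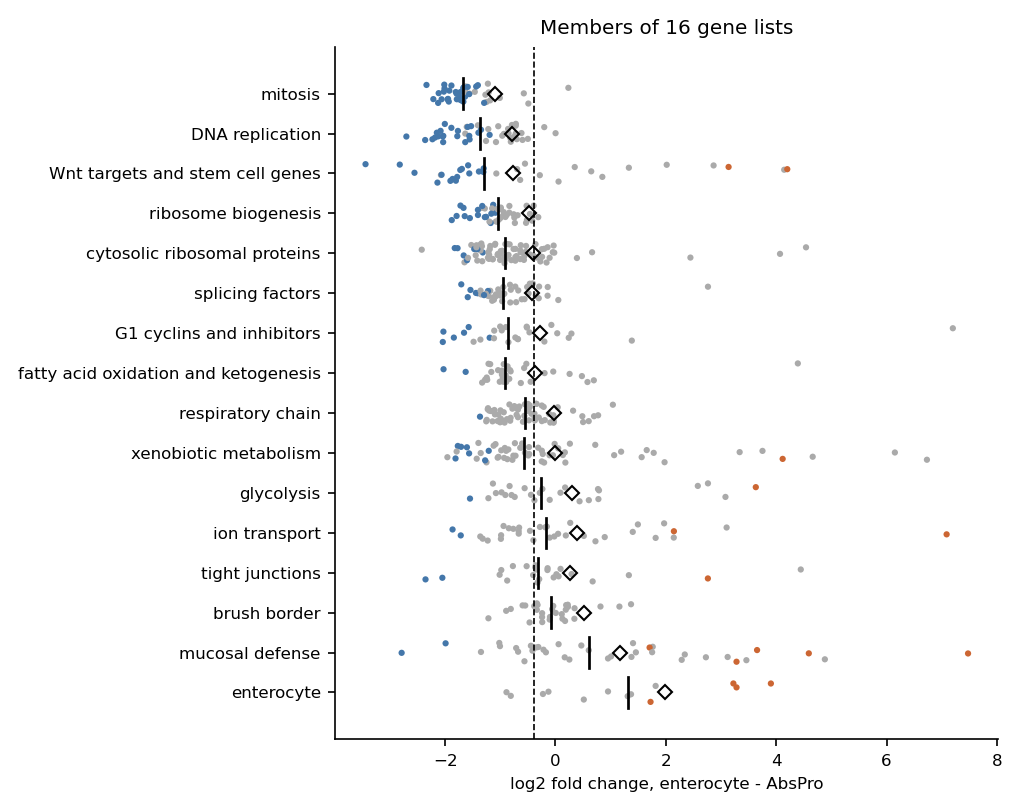
Log2 fold change of each tested member of 16 gene lists, with called genes in orange (higher) and blue (lower); the black bar is the list's median under TMM, the open diamond its median with factors from abundant genes, and the dashed line the TMM median of -0.39 over genes with a mean of at least 50. Mitosis and DNA replication lie furthest to the left, and the enterocyte markers furthest to the right.

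Markers of other cells were measured beside these results. Summed over 8 goblet cell markers, AbsPro libraries held 84348 to 254233 normalized counts and enterocytes 236045 to 692557, so that goblet RNA was high in both. By edgeR under TMM 0 of the 8 were called, and with factors from abundant genes 2 were higher, Zg16 among them (1.72, adjusted p = 0.0074). At an unadjusted p under 0.05, 2 were higher and 1 lower under TMM, and DESeq2 called 3 higher and 0 lower. Muc2, the gel-forming mucin, was 63495, 29154 and 88401 and 95274, 64559, 100234, 110244 and 194498 (0.90 ± 0.73, adjusted p = 0.31). Of 7 markers of deep crypt secretory cells 0 were called by edgeR, 0 were higher and 2 lower at an unadjusted p under 0.05, and DESeq2 called 0 higher and 0 lower. Reg4 was 19113, 7467 and 28132 and 3962, 1412, 2416, 7829 and 21045. Of 14 enteroendocrine markers Slc18a1 alone rose (1.95 ± 0.46, adjusted p = 0.0046), and the summed level was 5016 to 21548 in AbsPro and 10105 to 36005 in enterocytes.

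Markers of rarer cells were low in both groups. Of 11 tuft cell markers 6 rose, with sums of 45.5 to 205 in AbsPro and 574 to 1338 in enterocytes, and background was estimated at 22% of the enterocyte sum. With background taken off 5 of the list were called higher, and with enterocytes 4 and 5 alone 3 were. Rgs13 was at 0 in all 3 AbsPro libraries and had an enterocyte mean of 12.5, with background at 62.2% of it, and was not called once background was taken off. Dclk1 was 26.1, 1.63 and 14.1 and 275, 173, 226, 89 and 162, with background at 38.8% of the enterocyte mean. It kept its call with background taken off (3.61, adjusted p = 0.0014) and lost it with enterocytes 4 and 5 alone. Of 4 endothelial markers 2 rose (Cdh5, 5.75 ± 1.34, adjusted p = 0.0045, with background at 12.2% of its enterocyte mean, and Vwf, 2.83 ± 0.54, adjusted p = 0.00084, with 19.9%), 0 without AbsPro 2, and sums were 37.4 to 165 and 464 to 1158. Of 12 immune markers 0 were called by edgeR under TMM, 2 were higher with factors from abundant genes and 6 by DESeq2. At an unadjusted p under 0.05, 8 were higher under TMM, and 0 were called with background taken off. Sums were 100.0 to 299.5 in AbsPro and 643 to 1508 in enterocytes. Of 8 stromal markers 1 rose, Pdgfra (4.60 ± 1.18, adjusted p = 0.0086), with background at 22.6% of its enterocyte mean. Pdgfra was not called once background was taken off, nor with 6 of the 8 libraries left out in turn. Stromal sums overlapped and were 187 to 1493 and 737 to 1522. Their part in the results for Ptgs1 and Notch4 was not tested.

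The largest rises of all, among genes with background under 20% and separate libraries, were of genes without a count in AbsPro. They were Mov10l1, Cd300a, Sbk3, Gm5134, Hpse2, Cldn19, Ccdc154, Palm3, Gfra2 and Kcne1. Mov10l1, an RNA helicase of the germ line, held 0 counts in all AbsPro libraries and 219, 169.8, 270.3, 79.8 and 74.8 normalized counts in enterocytes, at least 201-fold higher against a floor of 3 counts over the group. Kcne1, a subunit of potassium channels, held 127, 86, 105, 43.3 and 65.1, at least 106-fold higher. Kcne1 and Hpse2 each lost the call in 7 of the 23 alternatives, among them each AbsPro library left out in turn. None of the 10 genes was called with enterocytes 4 and 5 alone. In Mov10l1 and Kcne1, enterocytes 4 and 5, which had the least background, were the lowest. Background was estimated at 11.5% to 19.9% of the enterocyte mean of these 10 genes, and 3 of them (Cd300a, Hpse2 and Cldn19) were not called once it was taken off.

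The 10 largest falls were Aqp1, Olfm4, Lars2, Hist1h1b, Acot1, Clca3b, Cd44, Nox1, Hist1h2af and Cnn3. Clca3b, a secreted regulator of chloride conductance, was abundant at 22359.5, 23341 and 16169 in AbsPro and 1376, 1887, 1562, 2829.8 and 6702 in enterocytes (-2.84 ± 0.48, adjusted p = 0.00025). Cnn3, an actin-binding calponin, went from 1097, 1427 and 894 to 95.1, 142, 67, 249 and 300.5 (-2.74 ± 0.39, adjusted p = 3.8e-05). Lars2, a mitochondrial tRNA ligase, rests on 1 library, with 5088, 52382 and 3927 in AbsPro and 3466, 1731, 744, 2873 and 1124 in enterocytes. AbsPro 2 was many times the other 2, and without it the log2 fold change was -1.18 and not called. Mir6236 showed the same library apart at 2357, 12932 and 1354.

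Counts per kilobase of exon were highest in both groups for Rpph1, the RNA of ribonuclease P. Rpph1 was 119766, 106801 and 85629 in AbsPro and 50018, 66307, 355906, 161912 and 514722 in enterocytes, a spread within enterocytes wider than the difference (1.14 ± 0.76, adjusted p = 0.21). In AbsPro Rmrp, the RNA of a related enzyme, Car1, Mir6236 and Spink4 followed in that order, and in enterocytes Lypd8, Snord15b, Rmrp and Mptx1. Spink4, a goblet cell gene, was 15267, 6306 and 21777 and 3735, 1992, 4433, 7538 and 23899.9.

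Across the 23 alternatives to the test, 19 of the 80 called genes among the 170 chosen by rule were called in each one. Atp12a, Saa1, Mxd1 and Pfkfb3 were those that rose. Cd44, Aqp1, Cldn15, Nox1, Uhrf1, Top2a, Cdc20, Ccnd1, Cdk4, Axin2, Ephb2, Smo, Hist1h1b, Acot1 and Cnn3 were those that fell.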

How the data were processed

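RNA of sorted colon crypt cells was measured in 22 libraries made with a low-input kit, and groups were taken from the deposited labels. The authors aligned reads to mm10 with STAR 2.5.2a and counted them per gene with HTSeq 0.6.1p1 without regard to strand, so that overlapping and antisense genes cannot be told apart, and deposited raw counts without normalization. Splicing and polyadenylation tables, which hold the authors' comparisons with stem cells, were not used here. In each file 5 entries stand for no gene, and neither totals nor tests include them. Among them are the reads outside genes, at 45.5% to 83.1% of reads on genes, outside genes or ambiguous between genes in the 8 libraries. Counts on genes came to 16614350 to 22157285 per AbsPro library and 5950619 to 12966128 per enterocyte library, and enterocytes are thus the less precise group at low counts.

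The contrast of enterocytes minus AbsPro was taken by the quasi-likelihood F test of edgeR 4.0.16 (R 4.3.3). A single model held all 22 libraries and no term but cell type, with TMM factors and the filterByExpr filter. The standard error is the absolute log2 fold change divided by the square root of F. The test was run first on simulated counts with known changes in some genes. Those counts held no difference in stray reads between the groups, so the run cannot bear on the effect of scaling. Alternatives were DESeq2 1.42.0, 3 other scalings (DESeq2 size factors, library totals, and TMM factors from genes with a mean of at least 50 and an estimated background under 10% in both groups, called factors from abundant genes), other filters and thresholds, counts thinned to the smallest of the 8 libraries, a fit of the 8 libraries alone, a replicate block and each library left out. Enterocytes 4 and 5 alone, and counts with estimated background taken off, were added after the values were seen. Background came from the counts per kilobase of exon of the silent families (GENCODE M21, 23376 of 24421 symbols matched). Coordinates count from 1 on GRCm38, the assembly of mm10. Plots were drawn with matplotlib 3.10.9, and tables were handled with pandas 2.3.3 and exact tests with scipy 1.17.1, under Python 3.11.15.

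The comparison and the 39 gene lists (8 of markers, 31 of function) were chosen with earlier results of these data known. Named genes follow a rule. It takes set anchors of each list, the called gene of each list with the largest rise and fall whose libraries do not overlap, the 10 largest rises and falls over all genes with background under 20% of the higher mean, and the 5 genes with most counts per kilobase in each group. Other called members are named where a count is given. The same-numbered libraries of the groups were not paired, and whether any of them share a mouse or a sort is not stated. A few genes of these lists enter the counts and medians but are not reported here by name.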

Additional observations from a re-analysis of the deposited data

Results flagged for a closer look

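Among 214 values tested (4 library measures, 170 genes and 40 list sums), 13 had 1 enterocyte library apart from the other 4 by Dixon's test, where chance flags about 1 in 20. All 13 were genes. Enterocyte 5 stood apart for Mptx1 at 97086 normalized counts (the others 2309 to 11381), Spink4 at 23899.9 (1992 to 7538), Clca3b at 6702 (1376 to 2830), B2m at 6249 (3100.3 to 3988), Ndufa4 at 1116 (179.9 to 419) and Fbl at 327 (108 to 165). Enterocyte 4 stood apart for Hist1h1b at 619 (89.0 to 210.5), Axin2 at 594 (260.4 to 332), Cdkn2b at 666 (444 to 494), Mcm5 at 381 (259.9 to 277) and Gm5134 at 52.5 (115 to 134). Enterocyte 1 stood apart for Chga at 8561 (2327 to 3768), and enterocyte 3 for Pmaip1 at 2059 (696 to 979). For Hist1h1b, Axin2, Mcm5 and Clca3b the library that stood apart was still below every AbsPro library. The normalized counts compared carry the TMM factors, which differ between enterocytes 1 to 3 and 4 and 5.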

How the results depend on the processing

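Against 434 higher and 725 lower genes, the counts under other settings were 2983 and 772 by the DESeq2 Wald test, 864 and 382 with DESeq2 size factors, 738 and 431 with library totals, 892 and 390 with factors from abundant genes, 1838 and 582 in a fit of the 8 libraries alone, 1540 and 2738 at an adjusted p under 0.05, 257 and 706 with estimated background under 20%, 356 and 1407 with background taken off, and 32 and 83 with enterocytes 4 and 5 alone. The share of higher genes among calls was 37.4% and ranged from 14.2% without AbsPro 1 to 79.4% by the DESeq2 Wald test. With 1 library left out, higher genes ranged from 98 (without AbsPro 2) to 504 (without enterocyte 4) and lower genes from 168 (without AbsPro 2) to 1993 (without AbsPro 3), and the share from 14.2% to 44.4%. No filter on low counts (495 and 822), no minimum mean (651 higher), a minimum over the 8 libraries (463 and 725), thinned counts (415 and 509) and a 2-fold minimum (434 and 725) stayed within 1.5 times of both counts. With a replicate block higher genes were 534 and lower genes 1887. Same-numbered libraries correlated at 0.0842, -0.152 and 0.336 in their deviations, so that the numbers were not read as pairs. Of 80 called genes among the 170 chosen by rule, 64 were also called with factors from abundant genes, and 0 were called in the opposite direction under any setting. The cause of the shifts between settings was not tested. Depth limits low genes, and the lower bound of a fold change against a group at 0 depends on the floor of 3 counts.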
